A study of Mus musculus with 2 samples.

Results

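The small leucine-rich proteoglycans are secreted matrix proteins built around tandem leucine-rich repeats. Their 10 genes studied here are Dcn, Bgn, Aspn, Lum, Fmod, Prelp, Omd, Ogn, Podn and Podnl1, taken by symbol from a table of 24421 gene rows, and all 10 were present. The set was chosen by family and with the measured H19KO to WT ratios of these same libraries known, those of Podnl1 and Dcn among them, so ratios between the libraries are descriptions and carry no test. The table holds RNA-seq counts from 2 libraries of whole mouse ovary. The H19KO library came from ovary of H19 knockout mice whose sample description gives the allele as H19(Δ3), and the WT library from wild-type ovary. Both are labelled C57BL/6J, 8 weeks old and without special treatment, and the number of animals behind each library is not given in the sources used here. The study asked which ovarian genes are regulated by H19, an imprinted long noncoding RNA.

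Members of this family bind to collagen fibrils and limit or space their growth, and several also hold growth factors such as TGF-beta in the matrix. Class I members such as decorin carry chondroitin or dermatan sulfate chains, and class II members such as lumican can carry keratan sulfate. In the ovary, collagen-rich stroma, the theca layers around follicles, vessel walls and the capsule under the surface epithelium are the settings where such proteins are usually found.

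The H19KO library held 23041225 counts over 19556 genes with a count, and the WT library 23335131 over 18730. H19 had 0 counts in the H19KO library and 672 in the WT library. The upper bound of its exact binomial 95% interval was a log2 ratio, H19KO over WT, of -7.50. Of the granulosa cell markers, Inha was abundant in both libraries, at 19585 counts in H19KO and 27765 in WT. Cyp19a1 was much less so, at 345 counts in H19KO and 1052 in WT. Counts were scaled to CPM, the count of a gene relative to the library size, with TMM factors, and each ratio is H19KO over WT with an exact binomial 95% interval. The intervals cover counting error only. Since each genotype has 1 library, none of the differences could be checked against replicates, and the comparisons are of 2 libraries rather than of genotypes. In a bulk tissue, fewer cells of a type and less RNA per cell cannot be told apart.

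Decorin and lumican were the members with the most RNA in the H19KO library relative to the WT library, and Podnl1 had by far the least. Dcn was 1.54-fold and Lum 1.61-fold higher in H19KO and Podnl1 5.32-fold lower, while the other 7 members ran from 1.22-fold lower (Prelp) to 1.15-fold higher (Bgn). All 10 members had a mean of at least 1 CPM. The interval lay wholly above equality for Dcn, Lum and Bgn, wholly below it for Prelp, Omd and Podnl1, and spanned it for Aspn, Fmod, Ogn and Podn. By the same rule 22.2% of all 13928 genes with a mean of 1 CPM or more lay above equality and 24% below it. These shares are the background for the list counts below as well. Small ratios clear equality more readily at high counts, so such counts are not comparable between lists. No member had an interval wholly above 2-fold, where 0.61% of all genes did, and Podnl1 alone had one wholly below 2-fold, where 0.388% did. At a limit of 1.5-fold the members above were Dcn and Lum, where 1.8% of all genes lay above, and the member below was Podnl1, where 1.21% of all genes lay below. The median log2 ratio was 0.05 over the 10 members and -0.01 over all genes, while the mean over the members, which Podnl1 weighs on, was -0.14.

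**Figure D1:**
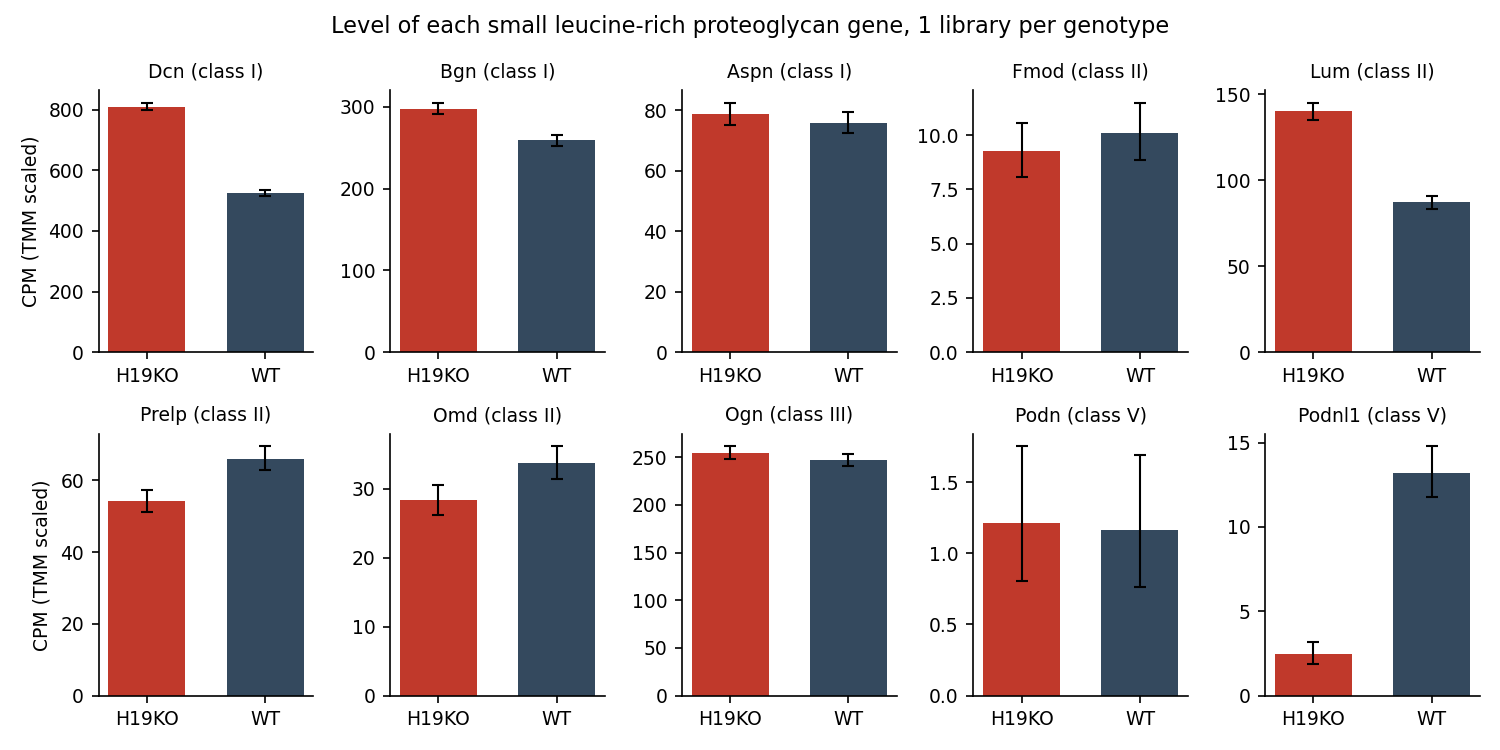
Bars show the TMM-scaled CPM of each member in the H19KO library (left) and the WT library (right), with 95% Poisson intervals of the count. Each panel has its own axis from 0. Dcn stands at 810 CPM in H19KO and 525 CPM in WT, and Podnl1 at 2.47 CPM in H19KO and 13.2 CPM in WT.

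Among the class I genes, Dcn encodes decorin, which binds collagen fibrils and TGF-beta and restrains receptor tyrosine kinases such as EGFR and MET. Dcn had 18733 counts in H19KO and 12198 in WT, or 810 CPM in H19KO and 525 CPM in WT. The log2 ratio was 0.63 (0.59 to 0.66), and 3.96% of all genes of at least 1 CPM had a higher one. Bgn encodes biglycan, a close relative that also binds collagen and, once released, can engage Toll-like receptors. Bgn had 6881 counts in H19KO and 6022 in WT, a log2 ratio of 0.20 (0.15 to 0.25). The higher level of Bgn in H19KO was small, and 19.1% of all genes had a higher ratio. Aspn encodes asporin, which has a stretch rich in aspartate and binds collagen and TGF-beta. Aspn had 1819 counts in H19KO and 1764 in WT, a log2 ratio of 0.05 (-0.04 to 0.15), so the libraries were not distinguishable for it at this depth. The class I genes therefore did not share one ratio. The count of Dcn per count of Bgn, a quantity that needs no library scaling, was 2.72 in H19KO and 2.03 in WT. Its log2 difference was 0.43 (approximate Woolf 95% interval 0.37 to 0.49).

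Among the class II genes, Lum encodes lumican, known for ordering collagen in the cornea and skin. Lum had 3238 counts in H19KO and 2025 in WT, a log2 ratio of 0.69 (0.60 to 0.77), and 3.31% of all genes had a higher one. Fmod encodes fibromodulin, which shares a collagen binding region with lumican. Fmod had 214 counts in H19KO and 235 in WT, a log2 ratio of -0.13 (-0.40 to 0.15), which spans equality. The count of Lum per count of Fmod was 15.1 in H19KO and 8.62 in WT, a log2 difference of 0.81 (0.53 to 1.09). These 2 collagen-binding relatives thus stood in unequal proportion in the 2 libraries beyond counting error.

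Prelp encodes a protein with an N-terminal region rich in proline and arginine that binds heparan sulfate, and so can link basement membrane to collagen. Prelp had 1254 counts in H19KO and 1537 in WT, a log2 ratio of -0.29 (-0.39 to -0.18). Omd encodes osteomodulin, best known as a cell-binding keratan sulfate proteoglycan of bone matrix. Omd had 655 counts in H19KO and 784 in WT, a log2 ratio of -0.25 (-0.40 to -0.10). Both were lower in H19KO by small amounts, and 13.1% of all genes had a lower ratio than Prelp and 15.8% a lower one than Omd. The count of Lum per count of Prelp was 2.58 in H19KO and 1.32 in WT, a log2 difference of 0.97 (0.84 to 1.10).

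Ogn, of class III, encodes osteoglycin or mimecan, a collagen-binding matrix protein first studied in bone and cornea. Ogn had 5891 counts in H19KO and 5744 in WT, a log2 ratio of 0.04 (-0.01 to 0.10). That interval just reached equality, and under total count and upper quartile scaling, with log2 ratios of 0.05 and 0.06, it lay above. Ogn was abundant in both libraries, at 255 CPM in H19KO and 247 CPM in WT, and its 2 levels differed by far less than those of Dcn. The count of Dcn per count of Ogn was 3.18 in H19KO and 2.12 in WT, a log2 difference of 0.58 (0.52 to 0.64).

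The class V genes are the podocans, the most distant relatives in the set. Podn encodes podocan, which binds collagen and restrains smooth muscle growth in the artery wall. Podn had only 28 counts in H19KO and 27 in WT, a log2 ratio of 0.06 (-0.76 to 0.88). At that depth the interval allows Podn to be up to 1.84-fold higher or 1.69-fold lower in H19KO. Podnl1 encodes podocan-like 1, whose role is less well known. Podnl1 had 57 counts in H19KO and 307 in WT, or 2.47 CPM in H19KO and 13.2 CPM in WT. The log2 ratio was -2.41 (-2.86 to -2.01), and of the 13928 genes 11 had a lower one. The count of Podn per count of Podnl1 was 0.491 in H19KO and 0.0879 in WT, a log2 difference of 2.48 (1.62 to 3.35).

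Of genes with at least 1 CPM, the 3 nearest to Podnl1 in log2 ratio over the 2 libraries were Dab1, 2610035D17Rik and Trim30d. Dab1, a cytoplasmic adaptor of reelin signalling, had 29 counts in H19KO and 151 in WT, a log2 ratio of -2.35. The noncoding RNA gene 2610035D17Rik had 20 counts in H19KO and 116 in WT (-2.50), and Trim30d, a TRIM family gene, 17 in H19KO and 100 in WT (-2.51). With 2 libraries many genes can share a ratio, and the intervals of 47 genes overlapped that of Podnl1.

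**Figure D2:**
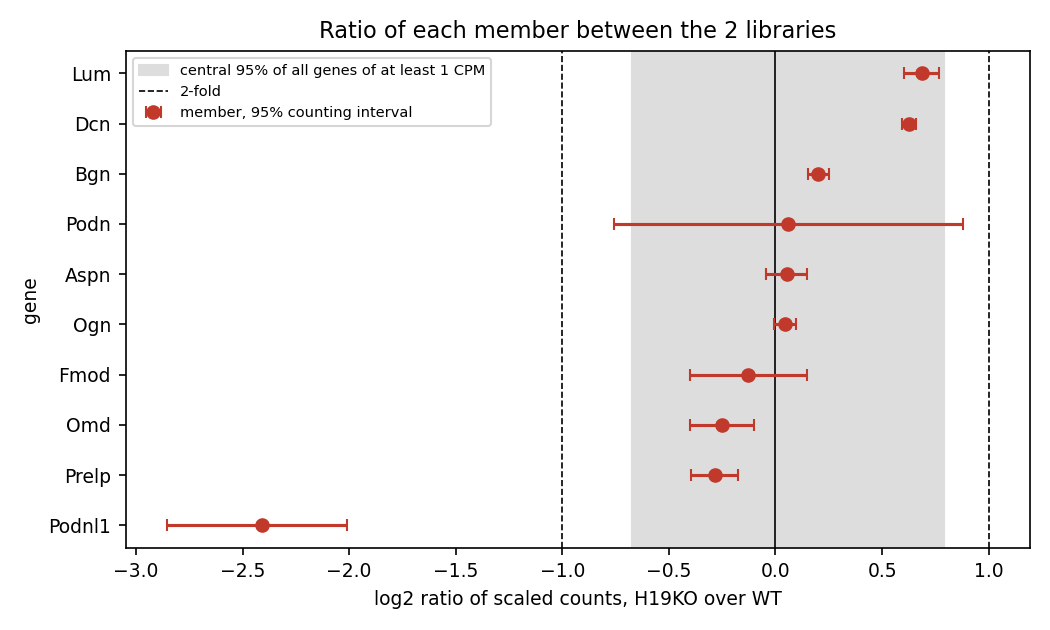
Points are the log2 ratio of scaled counts, H19KO over WT, of each member, bars the exact 95% counting interval, the grey band the central 95% of all genes of at least 1 CPM (-0.67 to 0.79) and dashed lines 2-fold. Podnl1 at -2.41 lies outside the band, and Lum at 0.69 and Dcn at 0.63 lie inside it, near its upper edge.

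**Figure D3:**
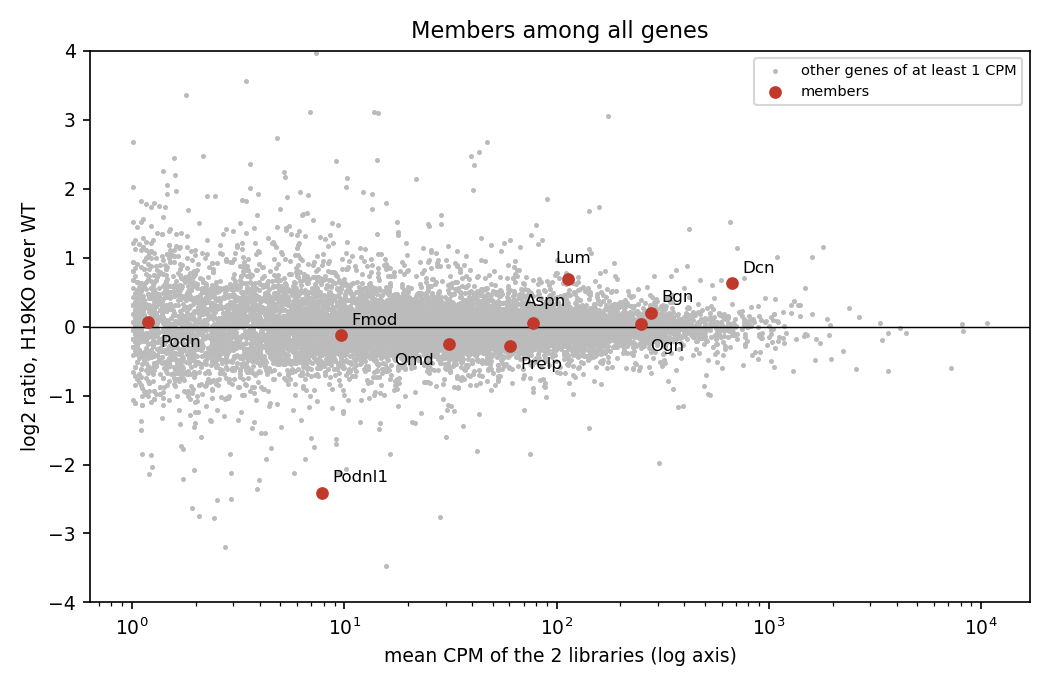
Each point is a gene, with its mean CPM over the 2 libraries on a log axis and its log2 ratio, H19KO over WT, on the other; members are red and labelled, and the 5 genes beyond 4 log2 units in either direction are not drawn. Dcn stands at a mean of 667 CPM with a log2 ratio of 0.63, and Podnl1 at 7.83 CPM with one of -2.41.

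As a family the 10 genes took 0.168% of all counts in the H19KO library (exact binomial interval 0.167 to 0.170%) and 0.131% in the WT library (0.130 to 0.133%). Their summed counts were 38770 in H19KO and 30643 in WT, a log2 ratio of 0.35 (0.33 to 0.37). Most of that difference was Dcn. Without Dcn the sums were 20037 in H19KO and 18445 in WT, a log2 ratio of 0.13 (0.10 to 0.16). Dcn made up 48.3% of the family's counts in H19KO (47.8 to 48.8%) and 39.8% in WT (39.3 to 40.4%), and Lum 8.35% in H19KO and 6.61% in WT. The share of Ogn was 15.2% in H19KO and 18.7% in WT, and that of Bgn 17.7% in H19KO and 19.7% in WT. Podnl1 had a share of 0.147% in H19KO (0.111 to 0.190%) and 1.00% in WT (0.893 to 1.12%).

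Levels of different members were compared only per length, as CPM per kilobase of annotated exon. In the H19KO library the order of these levels was Dcn at 139, Ogn at 99.3, Lum at 57.2, Bgn at 48.8 and Aspn at 33.4. Prelp followed at 15.002, Omd at 12.6, Fmod at 2.80, Podnl1 at 0.695 and Podn at 0.284. In the WT library Ogn led at 96.3, followed by Dcn at 89.9, Bgn at 42.5, Lum at 35.6 and Aspn at 32.2. Prelp then stood at 18.3, Omd at 14.99, Podnl1 at 3.72, Fmod at 3.06 and Podn at 0.272. With this length Dcn and Ogn led the family in both libraries, and Podn was last in both. Dcn and Ogn, Lum and Bgn, and Fmod and Podnl1 each had opposite orders in the 2 libraries. By the Poisson intervals, neighbours in each order were separate except Podnl1 and Fmod in WT. The place of Bgn depended on the length used. Its annotated exons cover 6.10 kb but its longest transcript 2.67 kb, and with the longest transcript as length Bgn stood at 112 in H19KO and 97.1 in WT. It then came after Dcn in both libraries, and in WT it overlapped Ogn at 96.3, while Lum and Aspn there overlapped too. The lead of Ogn over Dcn in WT ended with that length, since Dcn then stood at 112 there.

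**Figure D4:**
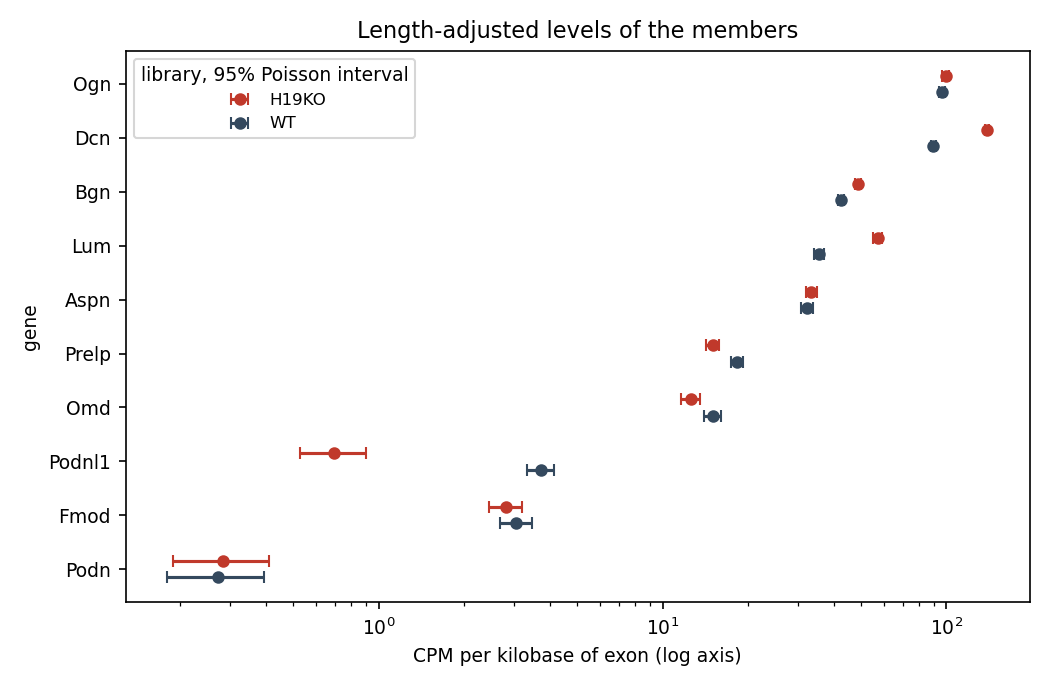
Points are CPM per kilobase of exon on a log axis for each member, H19KO (red) above WT (dark blue), with 95% Poisson intervals, ordered by the WT level. The levels run from 0.284 for Podn to 139 for Dcn in H19KO, and from 0.272 for Podn to 96.3 for Ogn in WT.

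Several members lie next to each other in the genome, and the neighbours differed in how alike their ratios were. Positions are of the GENCODE M21 annotation on the mm10 assembly. Dcn (chromosome 10, 97479609 to 97518143) and Lum (97565128 to 97572703) lie on the plus strand with 47.0 kb between them, and were the 2 members farthest above equality. The count of Dcn per count of Lum was 5.79 in H19KO and 6.02 in WT, a log2 difference of -0.06 (-0.14 to 0.03), so their proportion was not distinguishable between the libraries. Kera and Epyc, the further family genes of that cluster, encode keratocan of the cornea and epiphycan of cartilage. Kera had 1 count in H19KO and 5 in WT, and Epyc 1 in H19KO and 2 in WT, too few to compare.

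Prelp (133910304 to 133921414, minus strand) and Fmod (134037254 to 134048277, plus strand) lie 115.8 kb apart on chromosome 1. Their count ratio, Prelp per Fmod, was 5.86 in H19KO and 6.54 in WT, a log2 difference of -0.16 (-0.45 to 0.13). Optc beside them, which encodes opticin of the vitreous, had 62 counts in H19KO and 43 in WT, a log2 ratio of 0.53 (-0.05 to 1.13).

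Aspn (49544443 to 49567565), Omd (49582462 to 49592822) and Ogn (49608046 to 49624501) follow each other on the plus strand of chromosome 13, with gaps of 14.9 and 15.2 kb. The count of Ogn per count of Aspn was 3.24 in H19KO and 3.26 in WT, a log2 difference of -0.01 (-0.12 to 0.10). Omd, between them, stood apart. The count of Ogn per count of Omd was 8.99 in H19KO and 7.33 in WT, a log2 difference of 0.30 (0.14 to 0.45). The relative Ecm2, a matrix protein gene just before Aspn, had 1389 counts in H19KO and 1183 in WT, a log2 ratio of 0.24 (0.13 to 0.35). All 3 members lie inside the span of Cenpp on the opposite strand, and exons of Aspn share bases with it. The strand setting of the counting is not given in the sources used here. Cenpp itself had 145 counts in H19KO and 163 in WT.

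The remaining members stand alone. Bgn lies on the plus strand of chromosome X (73483602 to 73495933), Podn on the minus strand of chromosome 4 (108014791 to 108096445) and Podnl1 on the plus strand of chromosome 8 (84125989 to 84132527). The span of Podn overlaps that of Scp2 on the same strand, without shared exon bases. Prelp overlaps the antisense gene Gm15851. Dcn, Lum, Fmod, Bgn and Podnl1 overlap no other annotated gene.

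The start regions of the 3 neighbours on chromosome 13 are shown because adjacent genes there had unlike ratios, with that of Bgn as a contrast from a gene that stands alone. RefSeq promoter windows (build GRCm38.p6, 250 bases before to 50 after the start) were at hand for 7 of the 10 members. None was at hand for Dcn, Lum or Podnl1, the members with ratios farthest from equality. The motifs searched on both strands were the TATA box TATAAA and the sequence CCAAT bound by NF-Y, with GGGCGG of SP1, TGANTCA of AP-1 and CATTCC of TEAD factors, and capitals mark each match. All windows are on the plus strand.
Aspn chr13:49544193-49544492: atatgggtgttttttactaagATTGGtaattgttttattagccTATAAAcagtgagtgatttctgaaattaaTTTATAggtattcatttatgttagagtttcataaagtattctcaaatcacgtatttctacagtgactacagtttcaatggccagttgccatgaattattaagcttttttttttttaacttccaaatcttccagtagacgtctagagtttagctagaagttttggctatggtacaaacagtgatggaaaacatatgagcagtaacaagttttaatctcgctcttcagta
Omd chr13:49582212-49582511: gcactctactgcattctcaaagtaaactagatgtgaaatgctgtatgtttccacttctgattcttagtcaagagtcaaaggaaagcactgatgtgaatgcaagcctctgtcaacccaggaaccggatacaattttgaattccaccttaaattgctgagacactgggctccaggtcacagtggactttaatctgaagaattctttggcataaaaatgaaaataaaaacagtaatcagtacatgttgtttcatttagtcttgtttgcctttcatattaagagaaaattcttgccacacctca
Ogn chr13:49607765-49608064: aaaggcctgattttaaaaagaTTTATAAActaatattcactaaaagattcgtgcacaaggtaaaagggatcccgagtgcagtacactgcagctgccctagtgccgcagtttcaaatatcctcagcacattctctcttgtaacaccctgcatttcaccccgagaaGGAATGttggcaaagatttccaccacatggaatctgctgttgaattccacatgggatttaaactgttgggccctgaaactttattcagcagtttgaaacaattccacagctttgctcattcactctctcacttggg
Bgn chrX:73483351-73483650: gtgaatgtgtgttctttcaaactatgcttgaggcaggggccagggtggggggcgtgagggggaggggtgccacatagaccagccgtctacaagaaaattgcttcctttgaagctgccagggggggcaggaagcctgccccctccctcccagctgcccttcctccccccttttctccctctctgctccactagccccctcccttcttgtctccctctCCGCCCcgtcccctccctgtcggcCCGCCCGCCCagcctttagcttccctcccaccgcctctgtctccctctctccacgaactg

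The chromosome 13 windows are poor in G and C, at 31.0% for Aspn, 37.7% for Omd and 42.3% for Ogn, against a median of 52.7% over 32851 mouse windows of the same length. The Bgn window holds 63.7%. TATAAA occurred in the Aspn and Ogn windows, where the matches lie 178 to 229 bases before the start, and it occurs in 13.6% of all windows. In Ogn its 2 matches overlap each other. CATTCC occurred in Ogn, 86 bases before the start, and in 14.7% of all windows. CCAAT occurred in Aspn and in 37.4% of all windows. GGGCGG matched 3 times in Bgn, on the opposite strand, with 2 of the matches overlapping, and occurs in 35.7% of all windows. TGANTCA, present in 7.81% of all windows, was in none of these 4, and none of the 5 motifs was in the Omd window.

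Family genes outside the 10 were few in ovary. Of the 9 listed, 4 reached 1 CPM, and their median log2 ratio was 0.39. Nyx, which encodes nyctalopin of the retina, had 120 counts in H19KO and 64 in WT, a log2 ratio of 0.91 (0.47 to 1.38). Tsku, which encodes tsukushi, a secreted modulator of BMP and Wnt signalling, had 374 counts in H19KO and 529 in WT (-0.49, -0.69 to -0.30). With Ecm2, then, 2 of the 4 had an interval above equality and 1 below it, and the median turned to -0.61 when genes under 1 CPM were kept.

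The collagens that these proteins coat were higher in H19KO for some chains and not for others. Of 13 measured fibrillar and fibril-associated collagen genes, 5 had an interval above equality, 3 below it and 5 spanning it, with a median log2 ratio of -0.01. None was beyond 2-fold, where 0.61% of all genes were higher and 0.388% lower. Over all genes 22.2% lay above equality and 24% below it. Col3a1, the chain of type III collagen, had 40865 counts in H19KO and 27804 in WT, a log2 ratio of 0.56 (0.54 to 0.59). Col1a2, of type I collagen, had 13030 counts in H19KO and 11482 in WT (0.19, 0.15 to 0.23). Col1a1, the other type I chain, named after its values were seen, had 5226 in H19KO and 4259 in WT (0.30, 0.24 to 0.36). Col6a1, of the beaded type VI filaments to which decorin and biglycan bind, had 14724 counts in H19KO and 15548 in WT (-0.07, -0.10 to -0.04). Of 19 measured collagen processing and cross-linking enzymes, 10 lay above equality and 4 below, with a median of 0.08. The prolyl hydroxylase subunit P4hb had a log2 ratio of 0.19, the lysyl hydroxylase Plod2 0.11 and the collagen chaperone Serpinh1 -0.12. The lysyl oxidase family gene Loxl4, with 177 counts in H19KO and 54 in WT (1.71, 1.27 to 2.19), was the member of that list beyond 2-fold.

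Most enzymes that build the sugar chains of these proteoglycans had intervals spanning equality, as did 53.8% of all genes of at least 1 CPM. Of 21 measured genes for the linker and for chondroitin or dermatan sulfate, 14 spanned equality, 3 lay above and 4 below, with a median log2 ratio of -0.06. Chst11, a chondroitin sulfotransferase, had 6614 counts in H19KO and 6037 in WT (0.14, 0.09 to 0.19). Fam20b, the kinase that phosphorylates the linker xylose, had one of 0.03 (-0.03 to 0.09), and the chondroitin synthase Chsy1 -0.12 (-0.20 to -0.03). Of 10 measured keratan sulfate genes 7 spanned equality, 1 lay above and 2 below, with a median of -0.02. The fucosyltransferase Fut8 had a log2 ratio of -0.23 and the sulfotransferase Chst2 0.36, while the galactosyltransferase B4galt1 was equal at 2740 counts in H19KO and 2757 in WT. Over all genes 22.2% lay above equality and 24% below. The measured gene farthest from equality was Xylt1 in the first list (-0.62, -0.95 to -0.29). In the keratan sulfate list it was Chst1 (-0.57, -0.84 to -0.29). Both were named after their values were seen.

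Receptors and proteases of the family went both ways. Of 11 measured receptor genes, 5 lay above equality and 4 below, with a median log2 ratio of 0.06 and none beyond 2-fold. Over all genes 22.2% lay above equality and 24% below, with 0.61% higher and 0.388% lower beyond 2-fold. These shares stand beside the protease and TGF-beta counts too. The integrin subunit Itgb1 had a log2 ratio of 0.08, Lrp1, an endocytic receptor of decorin, 0.10, and Igf1r, which decorin can bind, -0.17. Of 6 measured proteases that can cleave these proteins, 3 lay above equality and 2 below. Mmp2 had 3726 counts in H19KO and 3121 in WT (0.26, 0.19 to 0.33), Mmp14 3046 in H19KO and 3551 in WT (-0.21, -0.28 to -0.14), and Adamts5 -0.21. Of 12 measured genes for TGF-beta, its receptors, latent TGF-beta binding proteins and related matrix proteins, 4 lay above equality and 5 below. Their median was -0.06. Ltbp1, which anchors latent TGF-beta in the matrix, had 8111 counts in H19KO and 14825 in WT, a log2 ratio of -0.86 (-0.90 to -0.82). The receptor genes Tgfbr1 and Tgfbr3 had log2 ratios of -0.09 and 0.03.

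Of 18 measured genes for other proteoglycans, 6 lay above equality, 7 below and none past 2-fold. Over all genes 22.2% lay above equality and 24% below, with 0.61% higher and 0.388% lower past 2-fold. The median of the 18 was -0.06 on the log2 scale. Hspg2, the basement membrane proteoglycan perlecan, had 9930 counts in H19KO and 10092 in WT (-0.02, -0.06 to 0.02). Vcan, the hyaluronan-binding versican, had 5584 counts in H19KO and 7683 in WT (-0.45, -0.50 to -0.40). Sdc1, the cell surface syndecan, had 7383 counts in H19KO and 5421 in WT (0.45, 0.40 to 0.50).

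Markers of the cells that could supply these RNAs also differed between the libraries, and their part in the values of the members was not tested. Fibroblast and stroma markers summed to 1120 CPM in H19KO and 941 CPM in WT, a log2 ratio of 0.25 (0.22 to 0.28), with 9 of 13 measured genes above equality and 1 below. Beside this and the other marker counts, 22.2% of all genes lay above equality and 24% below. Pdgfra, a receptor of fibroblasts, had 9355 counts in H19KO and 6906 in WT, a log2 ratio of 0.45 (0.40 to 0.49). Dpt, the dermatopontin gene of the same list, named after its values were seen, had 372 counts in H19KO and 185 in WT (1.01, 0.76 to 1.28). The fibronectin gene Fn1 and the gelsolin gene Gsn each had one of 0.07. Smooth muscle and pericyte markers summed to 2124 CPM in H19KO and 1840 CPM in WT, with 6 of 12 above and 5 below. The contractile genes Myh11, Tagln and Acta2 had log2 ratios of 0.60, 0.17 and 0.16. Acta2 and Myh11 were the largest parts of both sums, at 787 and 651 CPM in H19KO and 704 and 430 CPM in WT. The 5 below equality, named after their values were seen, were Rgs5 (-0.17), Pdgfrb (-0.35), Cspg4 (-0.41), Mcam (-0.30) and Notch3 (-0.45). The higher sum in H19KO therefore does not show these lower genes. None of the markers in either list was at 0 in a library.

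Granulosa cell markers summed to 4528 CPM in H19KO and 5870 CPM in WT, with 11 of 12 below equality and Nr5a2 above it at 0.04. Over all genes 24% lay below equality and 22.2% above. The median of that list was -0.51, and Cyp19a1 (-1.60) and Ihh (-1.23) lay beyond 2-fold. Gja1, a gap junction gene, had one of -0.35. Theca and interstitial markers summed to 18614 CPM in H19KO and 18727 CPM in WT, with 3 of 9 above and 6 below. Their median was -0.06, with Cyp17a1 at -1.98 beyond 2-fold, Hsd3b1 at -0.06, Cyp11a1 at -0.02 and Aldh1a1 at 0.27. Hsd3b1 was the largest part of both sums, at 8065 CPM in H19KO and 8397 CPM in WT. The near-equal sums therefore do not show the lower Cyp17a1. Insl3 of this list, named after its values were seen, had 2 counts in H19KO and 1 in WT, too few to compare. Surface epithelium markers summed to 301 CPM in H19KO and 259 CPM in WT, with 5 of 9 above and none below. Among those above were Upk3b at 0.62 and Upk1b at 0.42. Wt1 spanned equality at 0.04 and was the largest part of both sums, at 126 CPM in H19KO and 123 CPM in WT. Endothelial markers summed to 629 CPM in H19KO and 718 CPM in WT, with 1 of 9 above and 5 below, among them Pecam1 at -0.36, Cdh5 at -0.27 and Kdr at -0.18. Macrophage and leukocyte markers summed to 1148 CPM in H19KO and 858 CPM in WT, with 8 of 9 above and 1 below. Of these H2-Ab1 had a log2 ratio of 0.74, Lyz2 0.54 and Cd74 0.38.

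Markers of tissues that may cling to the ovary had few counts, and their part in the values of the members was not tested. The oviduct, fat and bone markers summed to 19.03 CPM in H19KO and 19.3 CPM in WT, and 3 of the 9 had at least 1 CPM. The oviduct gene Ovgp1 had 134 counts in H19KO and 33 in WT, a log2 ratio of 2.01 (1.47 to 2.63), with its interval wholly beyond 2-fold, which the near-equal sums do not show. The other oviduct markers of the list, named after their values were seen, did not share this. Foxj1 had 3 counts in H19KO and 11 in WT, and Pax8 had 9 in H19KO and 9 in WT, both below 1 CPM. The fat cell gene Plin1 had 253 in H19KO and 341 in WT, whereas Adipoq, also a fat marker of the list, had 3 in H19KO and 5 in WT. The bone sialoprotein gene Ibsp had 15 in H19KO and 32 in WT. Lep and Bglap were at 0 in H19KO, with 1 and 2 counts in WT.

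**Figure D5:**
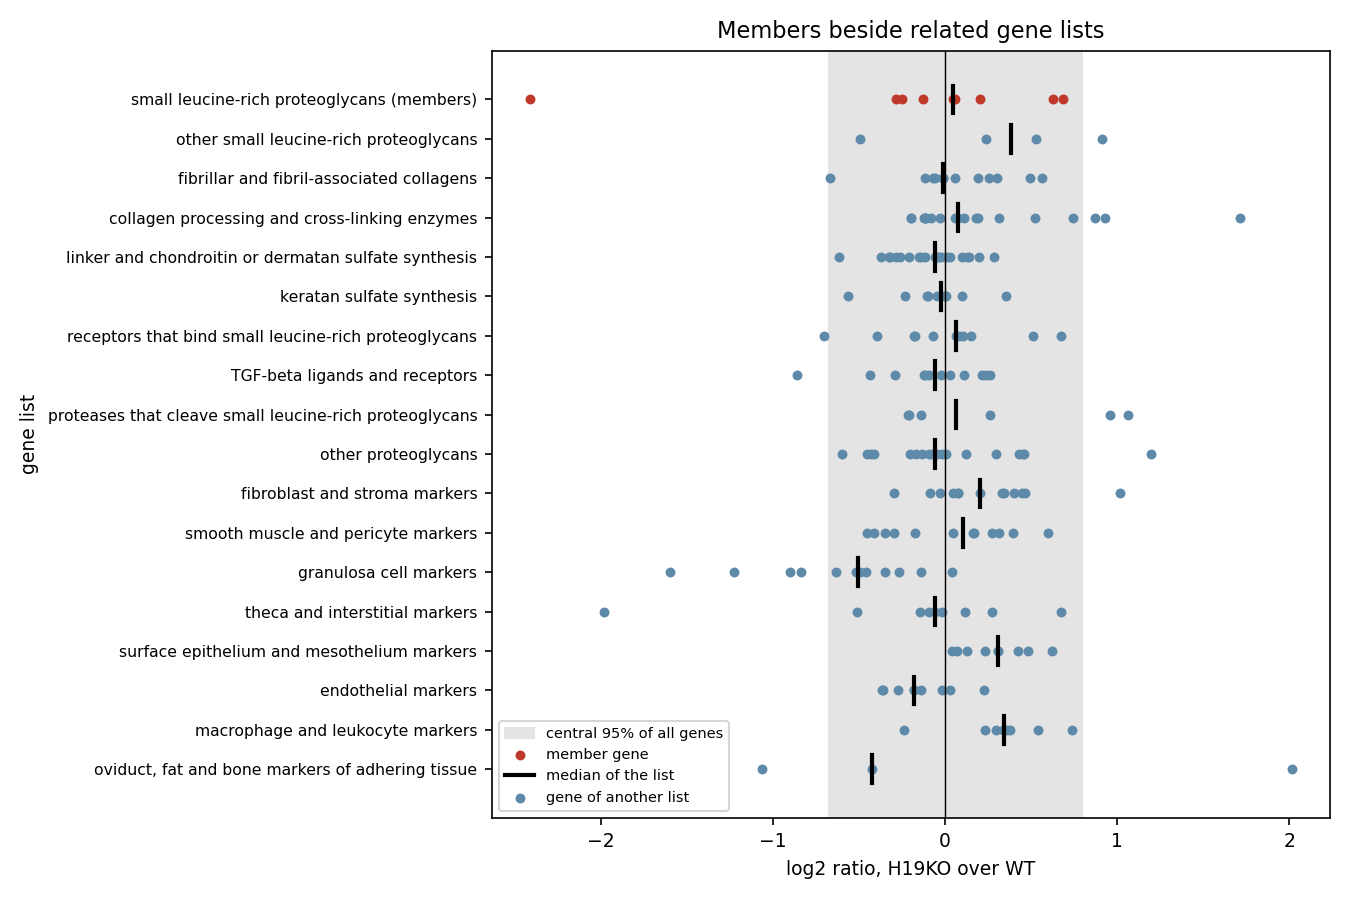
Each dot is a gene of at least 1 CPM, placed by its log2 ratio, H19KO over WT, in its list; black bars are list medians and the grey band is the central 95% of all genes. The 10 members in the top line have a median of 0.05 and run from -2.41 for Podnl1 to 0.69 for Lum, whereas the granulosa cell markers have a median of -0.51.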

How the data were processed

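Total RNA of whole ovary was depleted of ribosomal RNA and made into stranded libraries, per the labels' protocols. The values are whole-number counts per gene symbol deposited by the authors. STAR 2.5.0a and Cufflinks 2.2.1 are named, with DESeq2 1.0.0 and the mm10 build, per the submitters' processing notes. What each did, how reads were counted, on which annotation and with which strand setting is not given in the sources used here. Whether counts were scaled and rounded before deposit was not tested. The exact intervals assume whole reads and would be off if they were.

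Libraries were scaled by TMM (edgeR 4.0.16, R 4.3.3). For log2 ratios 0.5 was added to each scaled count, beside exact conditional binomial (Clopper-Pearson) 95% intervals. Levels have exact Poisson intervals. A gene was measured at a mean of 1 CPM or more and counted as beyond 2-fold when its whole interval was. This is a rule of size, not a test. Interval code was tested on simulated data. Named genes were the 10 members, H19, up to 3 of the most abundant and up to 3 beyond 2-fold from each of 17 lists, and the 3 nearest to Podnl1 in log2 ratio. Ratios of 2 members have approximate Woolf intervals; exceptions to the rule for names are stated. The members and lists were chosen with earlier results of these data known. Alternative scalings used DESeq2 1.42.0 and edgeR. Scripts ran in Python 3.11.15 with scipy 1.17.1, numpy 2.4.6, matplotlib 3.10.9 and pandas 2.3.3.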

Additional observations from a re-analysis of the deposited data

How the results depend on the processing

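No paired analysis was possible because there is 1 library for H19KO and 1 for WT, so that no replicate could be left out either. Of 40 member log2 ratios under the 3 other scalings and with 5 added to each count, all 40 stayed inside the gene's interval. The median of all genes moved by -0.01 to 0.02. At a 1.5-fold limit 2 members were higher in place of 0. Over all genes, the point ratio gave 206 higher and 123 lower in place of 85 and 54, and a minimum of 5 CPM gave 34 lower, since fewer genes were tested. The family sum had a log2 ratio of 0.13 without Dcn, in place of 0.35. With the longest transcript as length, 3 members changed place in the order of levels in H19KO and 3 in WT. By the mean the members stood at -0.14 in place of a median of 0.05, with the sign turned. Of 90 list values 81 stayed within the median bounds of the list's intervals. The theca list moved to -0.0480 under total count scaling, -0.0416 under upper quartile scaling, -0.19 by the mean and -0.0388 with no low count filter. By the mean, the collagen processing list stood at 0.25, the protease list at 0.29, the smooth muscle list at 0.0223 and the adhering tissue list at 0.18, the last with its sign turned. Without the filter the list of other family genes stood at -0.61, since genes of few counts entered. Otherwise the cause was not tested. Depth limits Podn most, at 28 and 27 counts in H19KO and WT.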

Other observations

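The genes in these paragraphs were chosen after their values were seen, and the values are descriptions of 2 libraries. All 4 latent TGF-beta binding protein genes were lower in H19KO with intervals below equality. Over all genes of at least 1 CPM 24% lay below equality and 22.2% above, and small ratios clear equality more readily at high counts. Besides Ltbp1, Ltbp2 had 441 counts in H19KO and 543 in WT (log2 ratio -0.29), Ltbp3 3242 in H19KO and 3546 in WT (-0.12), and Ltbp4 2915 in H19KO and 3962 in WT (-0.43). Of the ligand genes, Tgfb3 had 2525 counts in H19KO and 2152 in WT (0.24, 0.16 to 0.32), Tgfb2 657 in H19KO and 569 in WT (0.22, 0.05 to 0.38), and Tgfb1 458 in H19KO and 499 in WT (-0.12, -0.30 to 0.07).

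Among the lysyl oxidase genes, Lox and Loxl3, which cross-link collagen, had 1652 counts in H19KO and 1155 in WT (0.52, 0.41 to 0.63), and 692 in H19KO and 365 in WT (0.93, 0.75 to 1.12). Loxl1 had 1341 in H19KO and 1189 in WT (0.18, 0.07 to 0.30), and Loxl2, with the most counts of these genes, went the other way at 4525 in H19KO and 4909 in WT (-0.11, -0.17 to -0.05). The procollagen peptidase genes Adamts3 and Adamts14 had log2 ratios of 0.74 (0.35 to 1.15) and 0.87 (0.38 to 1.39), whereas the more abundant Adamts2 had -0.08 (-0.14 to -0.03). Col5a2, of type V collagen, had 3817 counts in H19KO and 2727 in WT (0.49, 0.42 to 0.56), and Col11a1, of type XI collagen, 1965 in H19KO and 3145 in WT (-0.67, -0.75 to -0.59).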
